A study of Mus musculus with 8 samples.

Results

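The interval of chromosome 2 from 146000000 to 147150000 (mm9), named for the homeobox genes Nkx2-2 and Nkx2-4, held 47 of the 26317 peaks deposited for 8 chromatin immunoprecipitation sequencing (ChIP-seq) libraries. A peak was counted in the interval when its centre lay there. The interval was chosen by the OTX2 peak lists themselves: its first 1 Mb bin stood out for 8 regions shared between OTX2 libraries, 6 of them found in every one. The number of regions and of libraries sharing them is therefore a description of how the interval was picked, and no test was run on it. All libraries came from subpallium (septum with the medial and lateral ganglionic eminences) of E12.5 embryos (midgestation) of the outbred mouse strain CD-1, wild type in genotype, with tissue pooled over several embryos. There were 3 OTX2 libraries, 3 input chromatin libraries and 2 libraries made with normal goat IgG, the third experiment having no IgG library. The lists hold no expression values, so the dissected tissue could not be checked against marker genes, and a peak cannot be placed in one of the dissected parts.

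OTX2 is a homeodomain factor of the forebrain and midbrain that binds TAATCC-type sites through a bicoid-like homeodomain. Nkx2-2 encodes a homeodomain repressor of the most ventral neural progenitors, which is induced by Sonic hedgehog and also acts in oligodendrocyte and pancreatic islet development. Nkx2-4 encodes a close relative of NKX2-1, the factor that specifies the medial ganglionic eminence, and is known for expression in the ventral diencephalon. In the midbrain, loss of OTX2 is known to let Nkx2-2 expression spread. In the GRCm38 gene table the protein-coding genes follow in the order Cfap61, Insm1, Ralgapa2, Kiz, Xrn2, Nkx2-4, Nkx2-2, Pax1 and Foxa2. Insm1 encodes a zinc finger factor of neurogenesis, Kiz a centrosomal protein, Xrn2 a nuclear exoribonuclease, Pax1 a paired-box factor of the sclerotome and Foxa2 a forkhead factor of the floor plate. Only this order was used, since the table and the peak lists use different builds.

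The promoter sequences are shown because the interval carries the names of these genes. They are the 250 bases upstream of the annotated start in RefSeq (GRCm38.p6, minus strand), at chr2:147186403-147186652 for Nkx2-2 and chr2:147085346-147085595 for Nkx2-4. Capitals mark TAAT or its complement ATTA, the core shared by many homeodomain sites.

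Nkx2-2: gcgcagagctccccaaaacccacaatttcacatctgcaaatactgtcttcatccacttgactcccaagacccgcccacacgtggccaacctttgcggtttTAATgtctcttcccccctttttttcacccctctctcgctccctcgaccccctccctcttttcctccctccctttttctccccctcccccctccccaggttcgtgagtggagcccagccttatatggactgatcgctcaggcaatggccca

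Nkx2-4: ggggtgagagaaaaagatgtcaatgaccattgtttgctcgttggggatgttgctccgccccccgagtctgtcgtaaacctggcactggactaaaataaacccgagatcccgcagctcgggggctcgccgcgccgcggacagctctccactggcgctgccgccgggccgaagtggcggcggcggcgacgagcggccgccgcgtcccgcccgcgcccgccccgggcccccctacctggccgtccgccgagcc

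The Nkx2-2 sequence held 1 TAAT core, with its first base 150 bases upstream of the start, and the Nkx2-4 sequence held none. Neither held TAATCC or its complement GGATTA, the longer motif that contains the core. Of all 32851 RefSeq promoters read over the same 250 bases, 6.25% held TAATCC and 54.9% held TAAT on either strand. G and C made up 56.4% of the Nkx2-2 and 70.4% of the Nkx2-4 sequence, against a median of 52.4% over all promoters. These letters belong to another build than the peaks, and no peak was matched to them.

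OTX2 replicate 1 had 8 peaks in the interval, replicate 2 had 7 and replicate 3 had 31. Among the control libraries, IgG replicate 2 had 1 peak there and the other 4 lists had none. That IgG peak lay from 146754650 to 146754779 and was ranked 163 of 182 in its list. It stood 18.9 kb from the nearest OTX2 peak, so no OTX2 peak of the interval overlapped a control peak. The lists differ in length, with 1848, 1298 and 22325 peaks for OTX2 replicates 1, 2 and 3, and give only the rank of each peak within its own list. Read depth is not recorded and is unknown.

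Overlapping peaks from at least 2 OTX2 libraries, free of control peaks, formed 8 regions in the interval, numbered here 1 to 8 along the chromosome. All 3 libraries contributed to regions 1, 3, 4, 5, 6 and 7. Region 2 came from replicates 2 and 3, and region 8 from replicates 1 and 3. The 6 regions in all libraries were 75.0% of the 8, where 40.5% of the 1949 regions of the genome were found in all 3. This share was part of the choice of the interval and is not read further. Without replicate 3, whose list carries another track name tag and many more peaks, there were 6 regions. With only the better-ranked 50% of each list, there were 5 regions, of which 1 was in all 3 libraries.

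**Figure D1:**
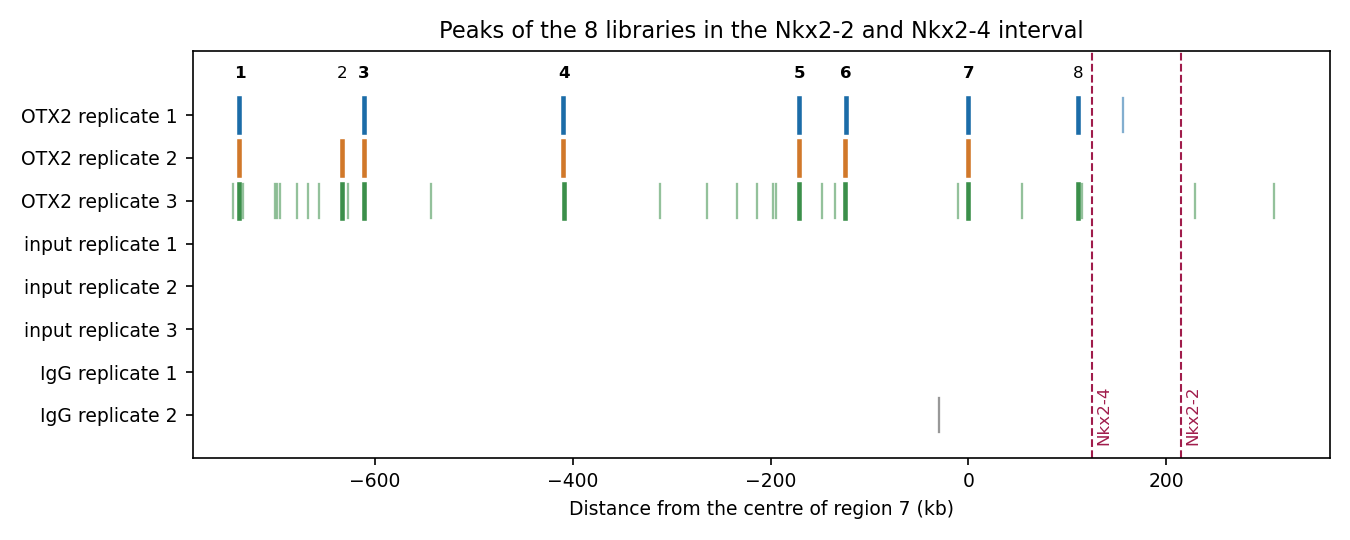
Peaks of the 8 libraries by distance in kb from the centre of region 7, 1 row per library. Thick coloured marks are peaks in the 8 numbered regions (bold numbers, all 3 OTX2 libraries), thin marks are OTX2 peaks of 1 library, and the grey mark is the IgG peak. Dashed lines are the approximate gene positions. All numbered regions lie on the lower side of Nkx2-4.

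The regions were centred away from the stated positions of the genes that name the interval. In mm9 Nkx2-4 is placed near 146.91 Mb and Nkx2-2 near 147.00 Mb. These positions were stated to the nearest 10 kb in the definition of the interval and were not read from the files, so distances to them are uncertain by at least 5 kb. They do not say which part of a gene is meant, and the RefSeq starts of the genes in GRCm38 are 101 kb apart, not 90 kb, so the uncertainty may be larger than the rounding. All 8 regions had lower coordinates than Nkx2-4. By gene order this is the side of Xrn2, Kiz, Ralgapa2 and Insm1. No region lay between the stated positions of both genes, and none lay beyond Nkx2-2. One region, number 8, was centred within 100 kb of Nkx2-4, at 14.9 kb. The nearest region to Nkx2-2 was the same one, at 105 kb. Whether any of these peaks falls in a gene, or acts on one, was not tested.

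Single-library peaks came closest to both genes. The peak nearest to Nkx2-2 was a replicate 3 peak from 147013501 to 147014476, centred 14.0 kb beyond the stated position and ranked 5754 of 22325. Replicate 1 had its nearest peak to Nkx2-2 58.6 kb away (146941273 to 146941446, rank 1621 of 1848), and replicate 2 had its nearest 216 kb away, in region 7. For Nkx2-4 the nearest peak was from replicate 3, 10.2 kb away (146899246 to 146900388, rank 4047). The nearest replicate 1 peak to Nkx2-4 lay 14.9 kb away in region 8 and was ranked 1458. Close to either gene, then, the peaks were those of replicate 3 or low in the list of replicate 1.

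The best-ranked site of the interval was region 7, from 146783438 to 146785535. Its peak was ranked 191 of 1848 in replicate 1, 49 of 1298 in replicate 2 and 184 of 22325 in replicate 3. These ranks stood at 10.3%, 3.78% and 0.824% of the length of each list. It was the first-ranked region of the interval in every OTX2 library. Its peaks were also the widest of the interval in replicates 1 and 2, at 574 and 438 bp, and spanned 2098 bp in replicate 3. By the mean of the 3 rank percentiles it took place 84 among the 789 regions found in all libraries. This mean gives replicate 3 little weight, since its percentages ran only from 0.824 to 3.76 in the 6 such regions of the interval. The centre of region 7 lay 126 kb from Nkx2-4 and 216 kb from Nkx2-2.

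Regions 5 and 6 lay 45.5 kb apart, where regions 2 and 3 lay closer, 20.4 kb apart. Region 6, from 146659537 to 146660820, was ranked 564, 693 and 647 in replicates 1, 2 and 3 and took place 495 of 789. Region 5, from 146612697 to 146614002, was ranked 768, 652 and 746 and took place 534. In replicates 1 and 2 both sat in the middle part of the lists, between 30.5% and 53.4% of their length.

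Farthest from the genes lay regions 1, 2 and 3, within the first 250 kb of the interval. Region 1, from 146046947 to 146047849, was ranked 1141, 770 and 732 in replicates 1, 2 and 3. Region 3, from 146173279 to 146174480, was ranked 847, 843 and 533. By the mean of the 3 rank percentiles they took places 669 and 621 of 789, the last 2 of the interval. In replicate 3 alone, however, region 3 was the second-ranked region of the interval. Region 2, from 146149450 to 146152906, was ranked 753 in replicate 2 and 1821 in replicate 3 and had no replicate 1 peak. Its replicate 3 peak of 3457 bp was the widest of the interval, and the 239 bp peak of replicate 2 was centred 412 bp from its middle.

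Region 4 was where the libraries differed most in rank. It lay from 146374415 to 146375950 and was ranked 328 of 1848 in replicate 1, 995 of 1298 in replicate 2 and 840 of 22325 in replicate 3. It was thus the second-ranked region of the interval in replicate 1 and the last in replicate 2. Its rank percentile was 58.9 points higher, that is worse, in replicate 2 than in replicate 1. A gap of this size or larger between these libraries was found at 12 of the 789 regions (1.52%). The replicate 1 peak was 404 bp wide and the replicate 2 peak 146 bp. This region was singled out after its values were seen.

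Region 8, the one nearest to Nkx2-4, was the lowest-ranked region of the interval in both lists that held it. It lay from 146894428 to 146895677 and was ranked 1458 of 1848 in replicate 1 and 2475 of 22325 in replicate 3. Its replicate 1 peak of 143 bp was the narrowest of that library in the interval.

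**Figure D2:**
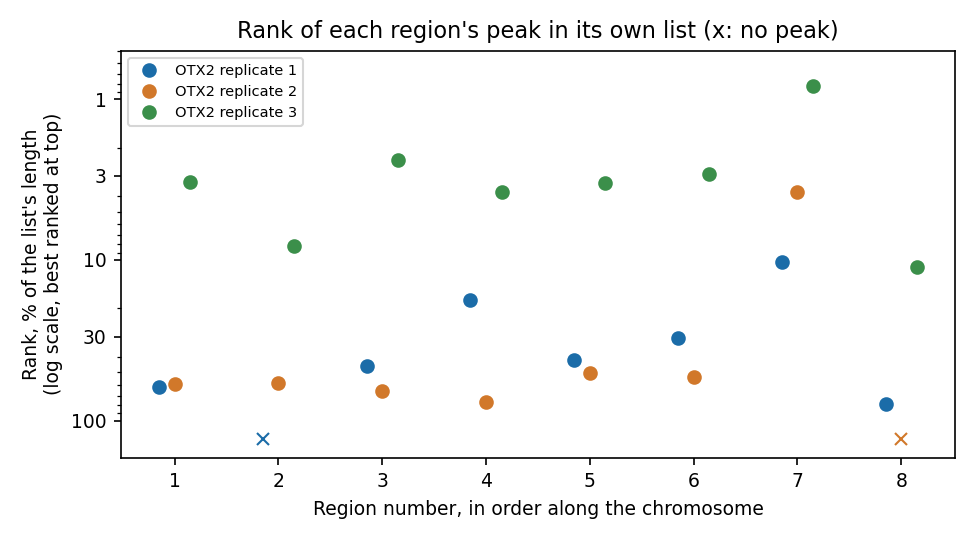
Rank of the peak of each region, as a percentage of the length of its own list (log axis, best ranked at the top), for OTX2 replicates 1, 2 and 3. Crosses mark a library with no peak. Region 7 is best ranked in every library, and region 4 stands at 17.7% in replicate 1 and 76.7% in replicate 2. Percentages of replicate 3 refer to a much longer list, so colours are compared only with themselves.

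Apart from region 7, the regions of the interval found in all 3 libraries took places below the middle of the 789 such regions. Places were again taken by the mean of the 3 rank percentiles, which gives replicate 3 little weight. In replicate 3 the regions in all libraries other than region 7 were ranked from 533 to 840 of 22325. Regions 2 and 8, each in 2 libraries, have no place. Of the 6 regions in all libraries, 1 stood in the better part of the 789 such regions and 5 stood below the middle place, 395. In replicate 1 their median rank percentile was 36.0, against 27.3 over all 789. For replicate 2 it was 56.4, against 35.1, and for replicate 3 it was 3.09, against 2.04. In each library, then, the median region of the interval stood lower in the list than the median region in all libraries. The lists that gave these ranks also gave the choice of the interval, so the values are given without a test.

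The 6 regions found in all libraries were built from overlapping peaks, which limits how far apart the centres of those peaks can lie. The centres of replicate 1 and replicate 2 peaks lay between 1 and 124.5 bp apart, with a median of 33.8 bp. In region 1 they differed by 1 bp and in region 3 by 2 bp. Between replicates 1 and 3 the median distance was 83.5 bp and between replicates 2 and 3 it was 114.5 bp. Over all 789 regions the medians were 46.0, 122.5 and 126 bp, respectively. In the 6 regions the peaks were also narrower, with median widths of 214, 161 and 1295 bp in replicates 1, 2 and 3. Over all 789 the median widths were 270, 223 and 1585 bp, so the distances are not read as closer placement. In all 6 regions both narrow peaks lay wholly inside the replicate 3 peak, as they did at each of the 789.

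Most of the replicate 3 peaks in the interval were seen in that library alone. Of its 31 peaks, 8 lay in a region (25.8%), against 8.71% of its whole list. For replicate 1 the count was 7 of 8, against 86.5% of its list, and for replicate 2 it was 7 of 7, against 89.7%. The counts of replicates 1 and 2 were thus near their background. All 3 counts come from an interval chosen for its regions, so they were not tested. The 1 peak of replicate 1 outside a region was the one from 146941273 to 146941446, between Nkx2-4 and Nkx2-2.

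The 6 best-ranked replicate 3 peaks of the interval were the 6 regions found in all libraries, with ranks from 184 to 840. Region 2 followed at rank 1821. The first peak seen in replicate 3 alone came next, ranked 1870 and lying from 146087620 to 146088612. Others lay from 146549621 to 146551344 (rank 2071), from 146156103 to 146157682 (rank 2156, 3.20 kb from region 2) and from 146648823 to 146649999 (rank 3576, 9.54 kb from region 6). The fifth was the rank 4047 peak next to Nkx2-4, 3.57 kb from region 8. Of the 23 peaks of replicate 3 alone, 3 were in the better-ranked 10% of its list and 9 in the worse-ranked 50%. Their median rank was 6842, at 30.6% of the list, where all replicate 3 peaks outside regions had a median of 54.2%. The 8 peaks in regions had a median rank of 739, at 3.31% of the list, against 4.98% for all replicate 3 peaks in regions. These 2 medians are not alike, because the interval was chosen with 6 of its 8 regions in all libraries. For regions in all libraries only, the median was 3.09% in the interval and 2.04% over the genome. The median width was 948 bp for the 23 peaks and 1295 bp for the 8 peaks in regions.

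**Figure D3:**
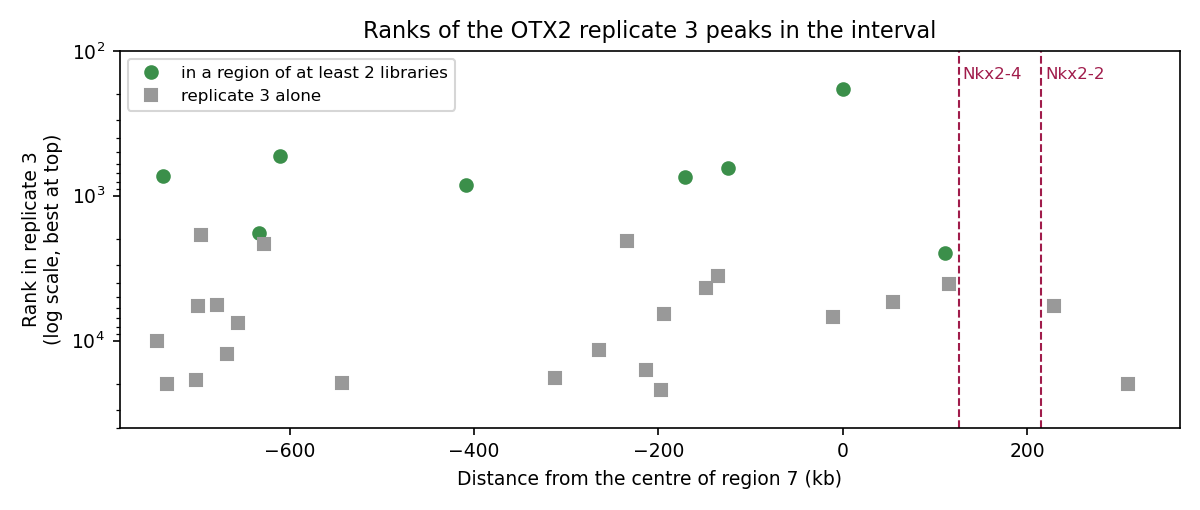
Rank of each of the 31 OTX2 replicate 3 peaks (log axis, best at the top) by distance in kb from the centre of region 7. Green circles are the 8 peaks in regions and grey squares the 23 peaks of replicate 3 alone. The 6 highest points, from rank 184 to 840, are all green, and the peak just beyond Nkx2-2 is grey, at rank 5754.

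Peaks of replicate 3 were unevenly spread along the interval. The first 250 kb held 13 of them, the next 250 kb 2, the stretch from 500 to 750 kb 9, and that from 750 to 1000 kb 5. The last 150 kb, which begins near Nkx2-2, held 2. Between regions 1 and 2, over 102 kb, there were 7 peaks of replicate 3 alone, with ranks from 1870 to 19897. In the 200 kb between regions 3 and 4 there was 1, ranked 19745. The 237 kb between regions 4 and 5 held 6, with ranks from 2071 to 21816. These stretches were picked after their values were seen.

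Long stretches without a shared region lay on both sides of the group. The first and the last of them were 849 kb apart from end to end, with gaps of 20.4 to 237 kb between neighbours (median 109 kb). Below region 1 the next region of the genome was 3858 kb away, from 142187918 to 142189322, and above region 8 it was 1819 kb away, from 148714752 to 148716648. The median gap between neighbouring regions of the genome was 520 kb. Of 1929 such gaps, 156 (8.09%) were at least as long as the lower stretch and 434 (22.5%) at least as long as the upper one. This pattern was looked at after the values were seen.

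These flanking stretches run from one shared region to the next, and most peaks of replicates 1 and 2 lie in shared regions, so few of their peaks could fall there. The lower stretch held none of replicate 1 and 1 of replicate 2. The upper one held 1 of replicate 1, the peak between Nkx2-4 and Nkx2-2, and none of replicate 2. Replicate 3 had 24 peaks in the lower stretch and 15 in the upper one, with best ranks of 2559 and 1964. This amounted to 6.22 and 8.25 peaks per Mb, against 8.46 per Mb over all chromosomes and 31.8 per Mb between the first and the last region, a stretch chosen for its shared regions. In replicate 3 the peak just inside the lower edge lay 40.7 kb from it (rank 10103) and the one just outside 112 kb from it (rank 2559). At the upper edge the distances were 56.4 kb (rank 20053) and 379 kb (rank 4627).

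**Figure D4:**
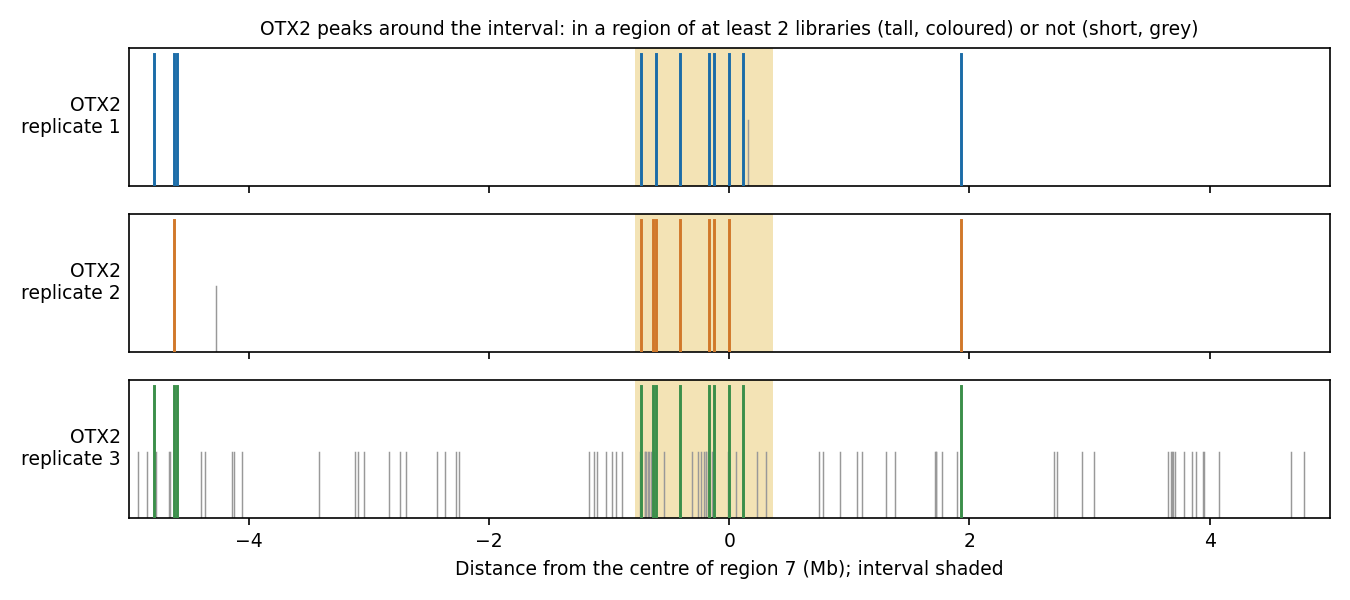
OTX2 peaks of replicates 1, 2 and 3 within 5 Mb of region 7, by distance in Mb. Tall coloured marks are peaks in a region of at least 2 libraries, short grey marks are other peaks, and the interval is shaded. No tall mark lies in the 3858 kb below region 1 or the 1819 kb above region 8.

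Of the 1086 bins of 1 Mb that held a region, 9 (0.829%) held at least 8, the number in the bin from 146000001 to 147000000. Just below that number, 5 bins held 7 regions, with 2 to 6 of them in all libraries. Its regions were spread out: the median gap was 109 kb, and the medians of the other 8 bins ran from 9.97 to 63.1 kb. In the other 8 bins the share of regions in all 3 libraries ran from 25.0% to 75.0%. The share of the bin from 146000001 to 147000000, 75.0%, was part of its choice and is not ranked against them. The best rank of this bin in replicate 2, 49, was exceeded by 1 of the other 8 bins. A better rank in replicate 1 was held by 5 of them, and in replicate 3 by 5. These bins were selected on their region counts, so the differences were not tested.

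**Figure D5:**
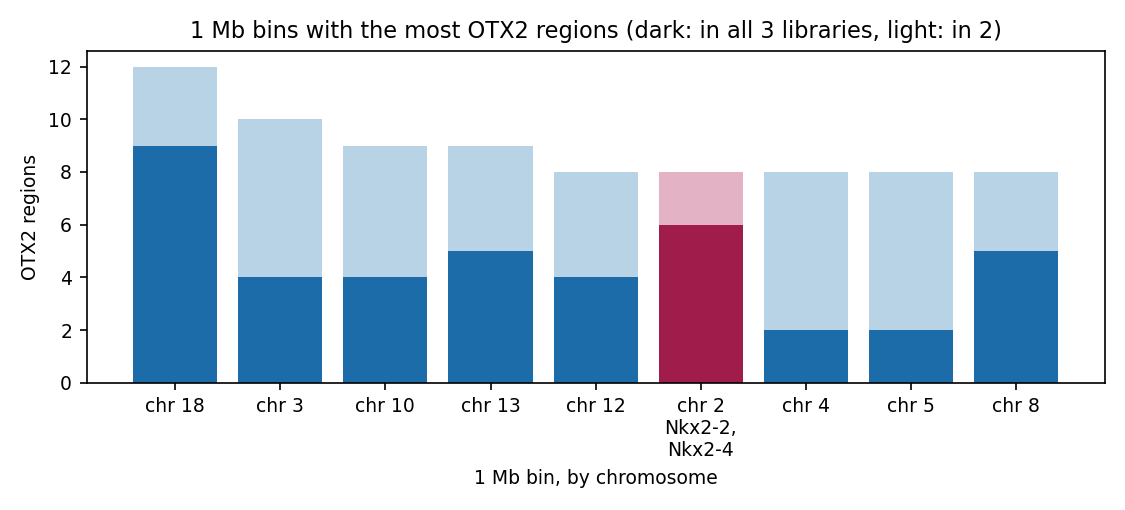
OTX2 regions in the 9 bins of 1 Mb with at least 8 regions, by chromosome. Dark parts are regions in all 3 OTX2 libraries and light parts regions in 2 of them. The Nkx2-2 and Nkx2-4 bin (red) has 6 of 8 in all libraries.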

How the data were processed

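Each deposited file was a peak list of 1 library with chromosome, start, end and a rank, per the file headers and contents. BWA, MACS 1.4 and the build mm9 are listed in the submitters' processing notes. The control used, the threshold, any filter and the ranked quantity were not given in the sources used here. Per the file headers, both libraries of the third experiment carry a track name tag that the others lack. Chromatin was fixed with 1.5% formaldehyde and read as single 50 bp reads, per the labels' protocols.

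Peaks with 1 bp or more in common were joined in Python 3.11.15. The 1949 regions obtained were checked with bedtools 2.31.1, and the joining was tested on simulated data. Coordinates are mm9, counted from 1, and none was converted. Whether the 3 experiments used separate litters is not stated in the labels. Rank percentiles are ranks divided by list length. The interval, gene lists and quantities were chosen with earlier results of these data known, so no hypothesis test was run. The text names every region, the 5 best-ranked replicate 3 peaks outside regions, the peaks nearest to each gene and to the edges, and every control peak. Further features, such as region 4, the flanking stretches and the spread of replicate 3 peaks, were chosen after their values were seen. Sequences of the peaks were not analysed here.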

Additional observations from a re-analysis of the deposited data

How the results depend on the processing

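Of 30 alternative values, 24 stayed within the limit set for a change (1.5 times for a count). With the better-ranked 50% of each list, the interval held 5 regions instead of 8, 1 region in all libraries instead of 6, 5 peaks of replicate 1 instead of 8 and 1 of replicate 2 instead of 7. Regions of any 1 library numbered 32. The shorter TAAT core matched 1 of the 2 promoters, where TAATCC matched none. Leaving out each OTX2 replicate gave 6 to 7 regions. With every list cut to 1298 peaks, an alternative chosen after seeing the data, there were 6 regions, all in 3 libraries. Placing the genes by an annotation of the peaks' build was not run. No paired analysis was possible because no result comes from a test. Ranks carry no height, so how far depth limits the shorter lists is unknown.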

Other observations

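Promoters of related genes were read for the same motifs, over the 250 bases upstream of each RefSeq start in GRCm38. Of 10 NK2 and NK6 homeobox genes listed, 8 had a sequence, and TAATCC was found in none of them. TAAT was found in 4 of the 8: Nkx2-2, Nkx2-5, Nkx2-9 and Nkx6-2. Of 14 genes of ventral neural patterning and its neighbours, 12 had a sequence. TAATCC was found in 1 of them, Dbx1, a homeobox gene of neural progenitors, and TAAT in 8 (66.7%). Over all promoters the shares were 6.25% for TAATCC and 54.9% for TAAT. A match is a stretch of letters and was not set against peaks.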
